A study of Mus musculus with 67 samples.

Results

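Ribosome-bound RNA pulled down from mouse brain with an anti-HA antibody was compared with the RNA recovered by an IgG1 control antibody, in the experiment that had been set up to test methods of cell sorting. The genes described are those that passed a filter on low counts in the 3 pull-down and 4 IgG1 libraries, 10838 of the 24411 genes listed, and they were chosen by that filter alone. The series held 67 libraries in 3 experiments, and the 8 libraries of sorted microglia from the same experiment enter only as a second readout. Mice of both groups were C57BL/6J with the genotype CX3CR1CreER/WT RLP22HA/HA, as the labels spell it, and had been given tamoxifen by gavage, 5 mg in each of 4 doses on alternate days, when they were 4 to 6 weeks old. Neither group was injected with lipopolysaccharide (LPS) or saline. Each brain homogenate, frozen before use, was incubated for 4 h with antibody, in stated amounts of 125 µg of anti-HA or 1 µg of IgG1. The protocol goes on to a later calibration of which no details were used here, and if these amounts applied, the effect of the antibody's target and that of its amount cannot be told apart. Replicates were separate mice per the series' design text, and sorting and pull-down are said there to have been done on the same animals, without a label that says which libraries share one.

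In this mouse line, known as RiboTag, a Cre recombinase switches the gene of the ribosomal protein Rpl22 to a version that carries an HA tag, and the tagged ribosomes bring the RNA they are translating out of a homogenate of the whole tissue. CreER is designed to act when tamoxifen is given, and here it is expressed from the locus of Cx3cr1, the receptor for the chemokine fractalkine, so 1 allele of that receptor is replaced. Microglia, the resident macrophages of the brain parenchyma, express Cx3cr1 strongly, and so do the macrophages of the meninges, perivascular spaces and choroid plexus, so the driver does not separate these cells. RNA that sticks to beads, antibody or tube comes down with either antibody, and the IgG1 libraries measure that carry-over from all brain cells.

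Total counts ran from 1425819 to 1714523 in the pull-down libraries and from 685218 to 1843618 in the IgG1 libraries, the lowest being IgG1 replicate 4. Correlations of depth-scaled log2 counts (log2 CPM) lay between 0.973 and 0.976 among pull-down libraries, between 0.928 and 0.970 among IgG1 libraries, and between 0.538 and 0.641 across the groups. Levels below are CPM after TMM scaling, which corrects depth for the make-up of a library, and are not corrected for gene length, so they compare libraries, not genes. Reads given for sorted microglia are sums over those 8 libraries, not scaled for depth, with total counts of 898098 to 1402952 in each. They count RNA of sorted cells and not RNA pulled down with the tag, so they are an unlike measure. A gene was called when its adjusted p in the edgeR quasi-likelihood test was under 0.05, and ± after a log2 fold change of pull-down over IgG1 is the standard error (SE), while ± after a level is the standard deviation (SD). A pull-down level rises with the number of tagged cells and with the RNA on the ribosomes of each, and bulk libraries cannot tell these apart.

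Most of the measured transcriptome differed between the antibodies. Of the genes tested, 7913 (73.0%) were called, 3804 (35.1%) higher and 4109 (37.9%) lower in the pull-down. The median log2 fold change over all genes tested was -0.08, and the counts below are read against these shares. Large differences were more often upwards. A log2 fold change of at least 4 in size was found for 520 genes called higher and for 79 called lower, whereas 2682 and 3099 genes differed at least 2-fold upwards and downwards. With total-count scaling the median of all genes moved to -0.50 and 2840 genes were higher against 5253 lower, and with all 15 libraries of the table in the fit the counts were 3078 and 5516, so the sign of small fold changes depends on the scaling. Ribosomal precursor RNA, listed as Rn45s, also fell in the pull-down, to between 272 and 342 CPM, against 1199 to 12864 CPM in the IgG1 libraries.

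**Figure D1:**
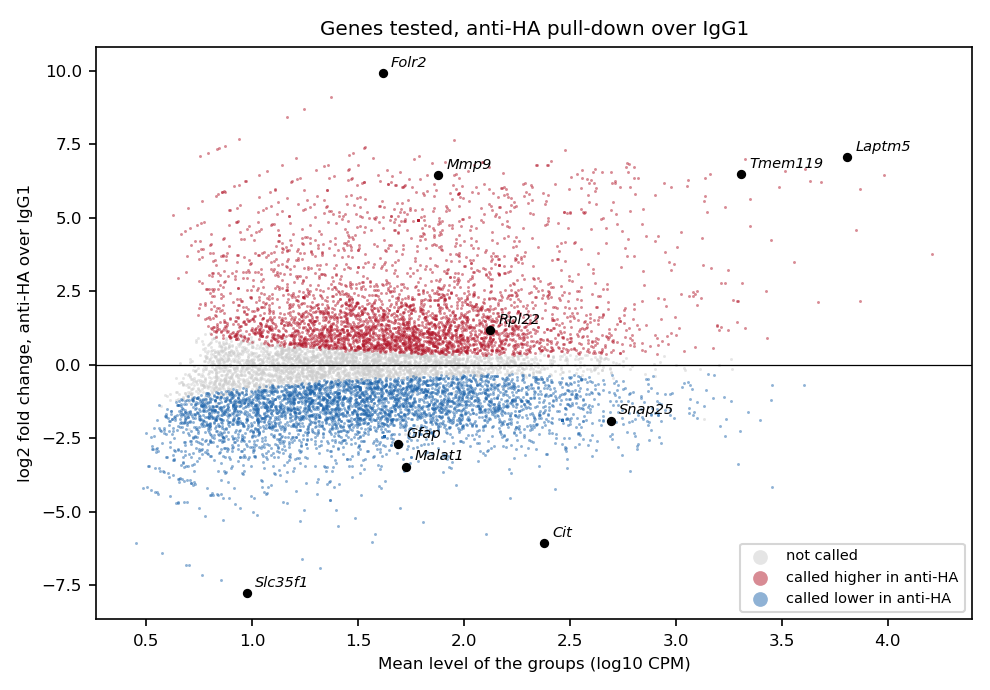
Log2 fold change of anti-HA pull-down over IgG1 (vertical axis) against the mean level of the groups in log10 CPM (horizontal axis) for the 10838 genes tested, with genes called higher in red, called lower in blue, not called in grey and some named genes in black; fitted values of genes with no read in a group (Folr2, Slc35f1) depend on the prior count. The red points reach farther from 0 than the blue ones: 520 genes called higher lie at 4 or above and 79 called lower at -4 or below.

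The tag gene and the driver gene were examined first. Rpl22 had 195, 158 and 204 CPM in the pull-down libraries, against 83.8, 84.8, 84.1 and 71.3 CPM in the IgG1 libraries, a log2 fold change of 1.18 ± 0.15 (edgeR adjusted p = 8.78e-07). Cx3cr1 had 888, 838 and 745 CPM in the pull-down, against 12.3, 18.7, 25.6 and 16.8 CPM with IgG1, a log2 fold change of 5.46 ± 0.20 (edgeR adjusted p = 2.43e-14). The groups did not overlap for either gene, as was the case for 7661 of the genes tested (70.7%), the pull-down lying above in 34.7% and below in 36.0%. The counts do not say which Rpl22 reads came from the tagged allele.

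The labelled cell type, microglia, was checked against its markers, and those tested were higher in the pull-down. Of the 25 genes of microglial identity listed, 24 were tested and 24 rose, with a median log2 fold change of 5.77, against -0.08 over all genes tested. Their summed level was 48543 to 53889 CPM in the pull-down libraries and 628 to 815 CPM in the IgG1 libraries. Tmem119, a membrane protein used as a marker of microglia, had 3976, 4075 and 3948 CPM in the pull-down, against 35.1, 54.1, 38.1 and 51.8 CPM with IgG1 (log2 fold change 6.49 ± 0.18). P2ry12, the ADP receptor that steers microglial processes towards injury, had 225, 270 and 199 CPM in the pull-down, against 5.55, 7.19, 6.25 and 14.3 CPM with IgG1 (4.93 ± 0.22). No library of either antibody came near the other group in these genes. The smallest change in the list was that of Lcp1, an actin-bundling protein of leukocytes, at 2.15, and the largest that of Laptm5, a lysosomal membrane protein of blood-derived cells, at 7.06 ± 0.17. Selplg, Olfml3 and Aif1 lay between them at 6.59, 6.30 and 6.19, each with an SE of 0.16 to 0.17. Cd53 was not tested, with 64 reads in the 7 libraries together.

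**Figure D2:**
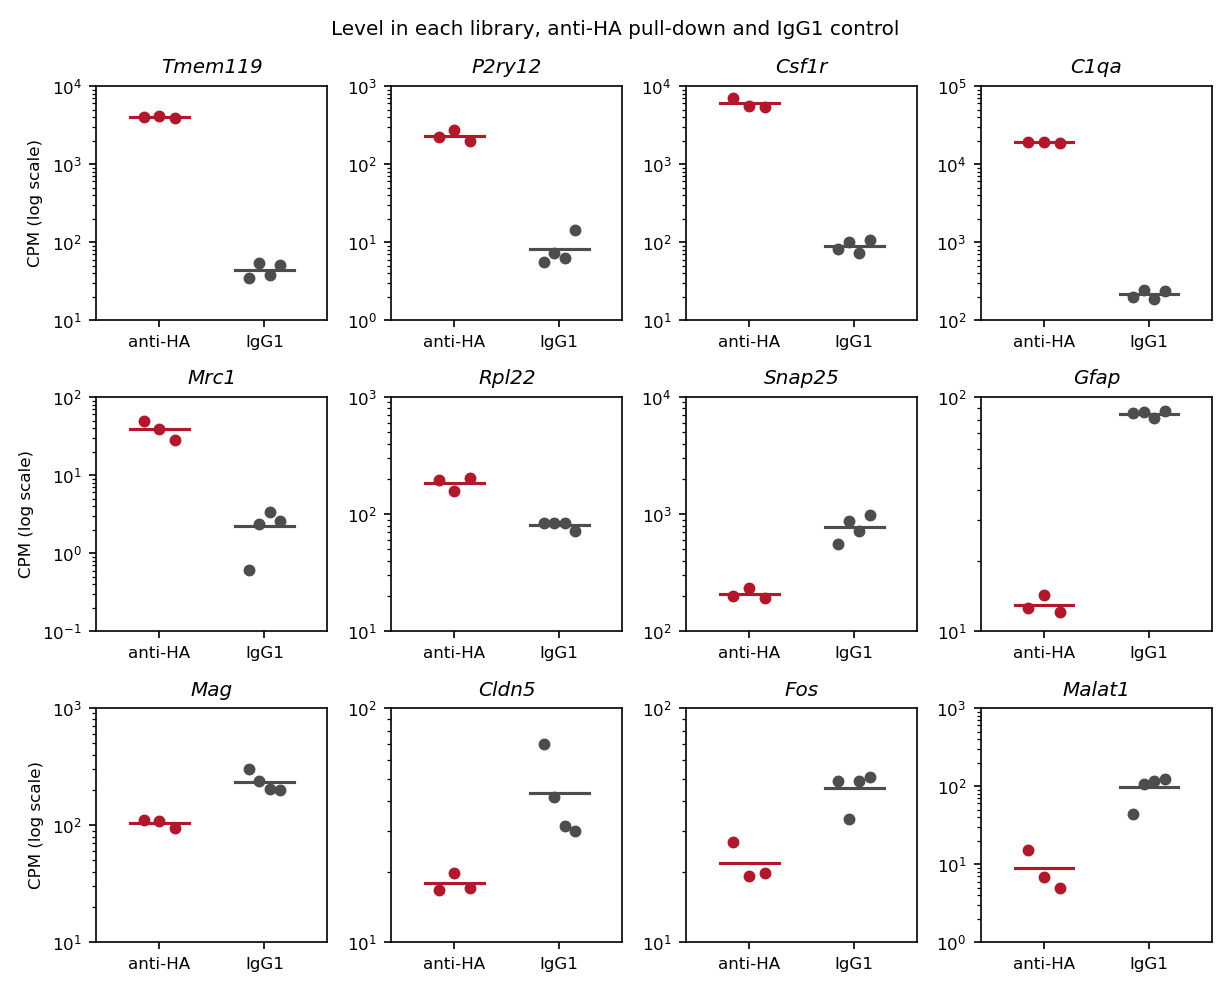
Level of 12 genes in each library, in CPM on a logarithmic axis whose range differs between panels, with anti-HA pull-down libraries (red, n = 3) left of IgG1 libraries (grey, n = 4) and a line at each group's mean. Genes of macrophages and Rpl22 lie higher in the pull-down, and genes of neurons, astrocytes, oligodendrocytes and endothelium, Fos and Malat1 lie lower, with no overlap between the groups in any panel.

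Transcription factors of the myeloid lineage followed. Of 18 tested, 17 rose and the other did not pass the test, with a median of 3.69. It was 3.14 unfiltered and 4.62 at a minimum count of 30. Irf8, which with PU.1 sets the myeloid programme, had 845, 751 and 697 CPM in the pull-down, against 9.24, 12.5, 9.66 and 9.07 CPM with IgG1 (log2 fold change 6.20 ± 0.18). Spi1, which encodes PU.1 itself, had 408, 401 and 371 CPM in the pull-down, against 5.55, 9.1, 9.66 and 11.7 CPM with IgG1 (5.49 ± 0.19). Both were separated widely from their control libraries. Irf5 changed by 6.14 ± 0.20, and Sall1, a zinc-finger factor restricted to microglia among macrophages, averaged 175 CPM in the pull-down and 9.22 CPM with IgG1. Mef2c, which neurons also express, averaged 112 CPM in the pull-down and 168 CPM with IgG1 and did not pass.

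PU.1 is known to bind sequences with the core GAGGAAGT, and the promoters of the genes were searched for it on both strands. RefSeq windows of 300 bases (GRCm38.p6, 250 bases before to 50 after the start) were found for 8399 of the tested genes, and 234 of these (2.79%) held the motif, against 3.28% of all 27025 windows. It was in 132 of 3006 windows of genes called higher (4.39%) and in 48 of 3076 windows of genes called lower (1.56%). None of the 17 microglial identity genes with a window held it, and 3 of the 21 lysosomal ones did. Those 3 lysosomal genes, all called higher, are shown on their own strand with the motif in capitals, which in each case is the reverse complement of PU.1's sequence. They are Ctss (cathepsin S, a protease of antigen processing; chr3:95526536-95526835, plus strand), Ctsc (cathepsin C, which activates granule proteases; chr7:88277835-88278134, plus strand) and Gusb (a lysosomal glucuronidase; chr5:130003000-130003299, minus strand).
Ctss: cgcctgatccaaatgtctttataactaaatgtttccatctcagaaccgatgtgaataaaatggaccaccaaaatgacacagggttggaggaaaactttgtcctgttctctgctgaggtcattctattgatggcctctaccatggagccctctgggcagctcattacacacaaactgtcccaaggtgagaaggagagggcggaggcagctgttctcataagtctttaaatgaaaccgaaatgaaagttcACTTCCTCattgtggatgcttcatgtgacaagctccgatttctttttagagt
Ctsc: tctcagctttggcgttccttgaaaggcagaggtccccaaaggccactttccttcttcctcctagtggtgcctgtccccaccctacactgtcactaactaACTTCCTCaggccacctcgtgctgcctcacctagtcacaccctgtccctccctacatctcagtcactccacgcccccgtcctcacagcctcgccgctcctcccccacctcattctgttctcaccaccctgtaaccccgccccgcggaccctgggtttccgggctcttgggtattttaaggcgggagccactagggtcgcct
Gusb: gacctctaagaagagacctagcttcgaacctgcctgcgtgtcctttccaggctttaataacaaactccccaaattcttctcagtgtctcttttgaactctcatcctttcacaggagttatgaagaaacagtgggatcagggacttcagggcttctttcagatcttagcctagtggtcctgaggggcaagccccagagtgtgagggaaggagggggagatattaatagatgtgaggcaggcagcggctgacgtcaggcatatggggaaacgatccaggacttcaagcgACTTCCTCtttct
A match is a run of letters and not a site shown to be bound, and a window without it says nothing of the factor.

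Most genes of growth factor signalling rose. Csf1r, the receptor on which microglia depend for survival, had 7081, 5598 and 5353 CPM in the pull-down, against 81.3, 99.7, 73.3 and 108 CPM with IgG1 (log2 fold change 6.06 ± 0.18). Il34, a ligand of that receptor made mainly by neurons in brain, had 12.5, 15.7 and 7.09 CPM in the pull-down, against 24.0, 28.3, 30.1 and 24.6 CPM with IgG1 (-1.19 ± 0.28, edgeR adjusted p = 0.000827). The receptor was thus higher and this ligand lower, without overlap in either. Of the 7 colony-stimulating factor genes tested, 6 rose, among them Csf3r and Csf2rb with log2 fold changes of 5.99 and 4.96 and the other ligand, Csf1, at 0.70 ± 0.29. Csf2rb2 had 162 pull-down reads, against 2 IgG1 reads, a ratio of 124 (exact 95% interval 33.8 to 1035). Csf2rb and Csf2rb2 are near-identical neighbours, and how reads were divided between them is not given.

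In the TGF-beta pathway, which keeps microglia in their resting state, 13 genes were tested, 9 rose and 2 fell, with a median of 0.73, which was 1.67 at a minimum count of 30 and up to 1.32 when 1 library was left out. The receptors Tgfbr1 and Tgfbr2 changed by 6.36 ± 0.20 and 4.97 ± 0.22, the ligand Tgfb1 by 4.23 ± 0.17, and Nrros, which presents latent TGF-beta on myeloid cells, by 4.66 ± 0.24. Tgfb3 had 5.85, 4.10 and 3.55 CPM in the pull-down, against 15.4, 13.9, 12.5 and 5.18 CPM with IgG1, and fell by 1.47 ± 0.41 on the log2 scale with 1 pair of libraries overlapping. Ltbp3, a binding protein of the latent ligand, averaged 9.40 ± 3.46 CPM in the pull-down and 19.2 ± 4.11 CPM with IgG1, and its call was lost without pull-down replicate 1 (edgeR adjusted p = 0.0511).

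Most genes of purine signalling rose. Of 10 tested, 8 rose and 2 fell, with a median of 4.93, or 4.20 unfiltered. Entpd1, the ectoenzyme that removes extracellular ATP, changed by 5.99 ± 0.22, and the receptors P2ry6 and P2rx7 by 5.25 ± 0.22 and 4.89 ± 0.21. Adora1, the adenosine receptor of presynaptic terminals, had 155, 163 and 151 CPM in the pull-down, against 495, 483, 489 and 525 CPM with IgG1 (log2 fold change -1.67 ± 0.14), and Adora2a, found on striatal neurons, changed by -1.50 ± 0.28. Adora3 went the other way, with means of 86.0 CPM in the pull-down and 1.17 CPM with IgG1.

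Genes of recognition and uptake rose nearly throughout. For the Fc receptors and their adaptors the count was 12 of 12 tested higher (median 5.85), for Toll-like receptors and their partners 8 of 8 (5.57), for phagocytic receptors 10 of 11 with the other not passing (5.57), and for complement 11 of 15 with 1 lower (5.43). These medians cover the members that passed the count filter, and with no filter they were 4.01 for phagocytic receptors and 3.16 for complement. With all 15 libraries in the fit they were 4.12 for Toll-like receptors and 3.54 for phagocytic receptors, and at a minimum count of 30 that of complement was 6.43. In lists scarce with IgG1 the count of rises was partly set by the filter. Tyrobp, the adaptor that carries signals from Trem2, had 4004, 5068 and 3548 CPM in the pull-down, against 26.5, 40.7, 26.7 and 38.9 CPM with IgG1 (log2 fold change 6.995 ± 0.209). C1qa, a chain of the first complement component, had 19095, 19425 and 18642 CPM in the pull-down, against 197, 244, 190 and 238 CPM with IgG1 (6.46 ± 0.16). The spread within each group was small beside these differences. Trem2 itself changed by 6.37 ± 0.17, Itgb2 and Itgam, which form complement receptor 3, by 6.80 ± 0.22 and 6.72 ± 0.18, and Tlr13, an endosomal sensor of bacterial ribosomal RNA, by 7.66 ± 0.31. For 9 of the 17 Toll-related genes listed counts were too low for a test, Tlr4 and Tlr7 among them with 40 and 28 reads in all. Cd59a, an inhibitor of the membrane attack complex on many cells, fell by 1.13 ± 0.30 on the log2 scale, with an overlap between the groups. Among Siglec receptors 5 of 6 rose (median 6.02), and the exception, Mag, is the member made by oligodendrocytes, at 105 ± 8.53 CPM in the pull-down and 235 ± 47.8 CPM with IgG1.

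Lysosomal genes and those of antigen presentation all rose among the members tested, 28 of 28 with a median of 4.02 and 15 of 15 with a median of 4.58. Ctss had 9003, 8554 and 7764 CPM in the pull-down, against 85.6, 119, 97.7 and 149 CPM with IgG1 (log2 fold change 6.24 ± 0.19). H2-Aa, a chain of MHC class II, had 829, 716 and 802 CPM in the pull-down, against 10.5, 7.19, 9.09 and 16.8 CPM with IgG1 (6.28 ± 0.21). Other cathepsins changed less: Ctsb averaged 3183 ± 309 CPM in the pull-down and 339 ± 49.8 CPM with IgG1 (3.23 ± 0.15), and Ctsd changed by 4.58 ± 0.16. In the sorted microglia of the same experiment H2-Aa had 228 reads and Cd74 417 reads over all 8 libraries, against 3170 and 1671 reads in the 3 pull-down libraries. As a share of total counts the sorted reads were 25.2 and 46.2 CPM. Border macrophages are known for MHC class II.

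Markers of border macrophages were therefore looked at beside them. Of 16 listed, 13 were tested and 13 rose, with a median of 6.05 that did not change when the 2 members with no IgG1 read were put at their lower bound. Their summed level was 1548 to 1647 CPM in the pull-down libraries and 21.6 to 28.3 CPM in the IgG1 libraries. At such IgG1 levels members passed the count filter mainly through the pull-down, so the count of rises was largely set by the filter. With no filter the median was 6.17. Folr2, a folate receptor of these cells, had 93.6, 80.7 and 73.8 CPM in the pull-down, against no read in any IgG1 library, so it was at least 171-fold higher, with the floor of 3 reads taken over the group. Pf4, the chemokine platelet factor 4, had 485, 427 and 567 CPM in the pull-down, against 5.55, 2.88, 2.84 and 9.07 CPM with IgG1 (log2 fold change 6.78 ± 0.24). Mrc1, the mannose receptor, had 49.3, 39.0 and 28.4 CPM in the pull-down, against 0.616, 2.40, 3.41 and 2.59 CPM with IgG1 (4.06 ± 0.36). These macrophages express the locus that drives the tag, and the pull-down has no gate that would remove them. The part they take in the MHC class II result was not tested.

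Neutrophil, monocyte and lymphocyte genes left little trace. None of 15 neutrophil and monocyte genes passed the count filter, and their summed level was 4.79 to 8.51 CPM in the pull-down and 5.11 to 8.01 CPM with IgG1, with Ly6g, Elane and Mmp8 at 0 reads in the 7 libraries. Of 15 lymphocyte genes 2 were tested and both rose, and Cd3g, Cd79a, Ms4a1 and Gzmb were at 0. Those 2 were Cd79b, a chain of the B cell receptor, at 58.9 ± 4.75 CPM in the pull-down and 0.570 ± 0.507 CPM with IgG1, and Cd4, at 20.3 ± 3.39 CPM in the pull-down and 7.98 ± 1.57 CPM with IgG1. Cd79b also had 668 reads in the 8 sorted microglia libraries, and Cd4 had 1. For erythroid genes 0 of 6 passed the test, and their summed level was 62.4 to 387 CPM in the pull-down and 34.7 to 405 CPM with IgG1. The haemoglobin genes Hba-a1 and Hba-a2 had the same count in each library, so reads were not divided between them. Hba-a1 had 8.35, 26.0 and 6.38 CPM in the pull-down, against 9.86, 70.9, 3.98 and 10.4 CPM with IgG1, highest in replicate 2 of both antibodies, and was called with the replicate number as a block (edgeR adjusted p = 0.0256).

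Inflammatory genes mostly rose among the members that passed the count filter. Of 14 genes of the NF-kB system and inflammation tested, 14 rose (median 4.43, or 3.14 unfiltered and 2.71 with all 15 libraries), led by the inflammasome adaptor Pycard at 6.57 ± 0.18, the TNF receptor Tnfrsf1b at 6.50 ± 0.24, Il10ra at 5.66 ± 0.21 and the cyclooxygenase Ptgs1 at 5.36 ± 0.20. The 23 genes listed summed to 2934 to 3109 CPM in the pull-down and 158 to 170 CPM with IgG1. At such IgG1 levels the count of rises was partly set by the filter. The cytokines Tnf, Il1a, Il1b and Il6 were not tested, with 4, 3, 28 and 0 reads in the 7 libraries. Of 13 chemokine genes 10 rose and 2 fell (median 4.85, or 4.21 unfiltered and 4.22 with all 15 libraries). Ccl9 had 145, 137 and 117 CPM in the pull-down, against 1.23, 0.958, 2.27 and 1.30 CPM with IgG1 (6.44 ± 0.27), while Cx3cl1, the neuronal ligand of Cx3cr1, averaged 237 ± 21.4 CPM in the pull-down and 427 ± 99.5 CPM with IgG1 (-0.85 ± 0.17). Receptor and ligand of the fractalkine pair thus lay on opposite sides, without overlap. Of 14 interferon-stimulated genes 12 rose (median 2.42, or 1.82 with all 15 libraries), among them Bst2 at 5.55 ± 0.22 and Isg15 at 3.26 ± 0.27. Of 16 genes of disease-associated microglia 13 rose (median 2.34), and Fth1, the ferritin heavy chain, and Ank, a phosphate transporter, fell by 0.68 ± 0.13 and 0.65 ± 0.14 on the log2 scale.

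Matrix metalloproteinases and their inhibitors gave 5 higher and 4 lower of 9 tested. Mmp9, which cleaves gelatin and basement membrane collagen, had 152, 153 and 143 CPM in the pull-down, against 1.85, 0.479, 2.27 and 2.59 CPM with IgG1 (log2 fold change 6.46 ± 0.27). Mmp2, the other gelatinase, had 171, 133 and 124 CPM in the pull-down, against 3.08, 1.92, 0.568 and 2.59 CPM with IgG1 (6.15 ± 0.28). Mmp17, a membrane-anchored member, had 345, 328 and 234 CPM in the pull-down, against 113, 115, 97.7 and 95.9 CPM with IgG1 (1.51 ± 0.16). All were clear of the control libraries, but the sorted microglia differed: Mmp17 had 0 reads and Mmp9 1 read in those 8 libraries, and Mmp2 had 436. In mice of this genotype that got no tamoxifen, pull-down libraries held 120 and 104 Mmp9 reads, against 0 and 0 in their IgG1 libraries. Mmp17 was called higher there too, by 2.72 ± 0.30 (edgeR adjusted p = 3.56e-07), with 73 and 84 reads in the pull-down, against 70 and 33 reads with IgG1. The reads without tamoxifen are not scaled for depth, and the total counts were 219521 and 186099 in the pull-down, against 1008705 and 629966 with IgG1.

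Genes of neurons fell together. Of 23 general neuronal genes tested, 23 fell (median -1.92), and of 18 genes of the glutamatergic synapse 18 fell (median -2.02). Among genes of GABA neurons, neuropeptides and calcium buffers 21 of 22 fell (median -1.26). Snap25, a protein of the vesicle fusion machinery, had 199, 235 and 192 CPM in the pull-down, against 556, 867, 716 and 982 CPM with IgG1 (log2 fold change -1.90 ± 0.19). Slc17a7, the vesicular glutamate transporter, had 124, 111 and 108 CPM in the pull-down, against 752, 781, 695 and 472 CPM with IgG1 (-2.57 ± 0.18). Neuronal transcripts were thus lower in each pull-down library but far from absent, and their summed level over the general neuronal list was 4421 to 4677 CPM in the pull-down, against 15872 to 16983 CPM with IgG1. Syp, Shank3 and Gad1, for synaptic vesicles, the postsynaptic scaffold and GABA synthesis, changed by -2.93 ± 0.17, -3.63 ± 0.29 and -2.11 ± 0.16.

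Most genes of other glia fell. Of 20 astrocyte genes 18 fell and the other 2 did not pass (median -1.60). Gfap, the filament protein of astrocytes, had 12.5, 14.4 and 12.1 CPM in the pull-down, against 85.6, 86.3, 81.3 and 86.8 CPM with IgG1 (log2 fold change -2.70 ± 0.20). Of 19 genes of myelin and oligodendrocytes 18 fell (median -1.50); Mag, the glycoprotein of myelin named above, had 111, 108 and 95.1 CPM in the pull-down, against 302, 239, 202 and 199.6 CPM with IgG1 (-1.17 ± 0.17). Trf, transferrin, was the exception and rose by 2.33 ± 0.17, with means of 1918 ± 93.2 CPM in the pull-down and 382 ± 85.5 CPM with IgG1 and 8799 reads in sorted microglia. Oligodendrocyte precursor genes fell in 10 of 10 tested (median -1.21).

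Few genes of vascular and barrier cells passed the count filter, and they went both ways. Of 8 endothelial genes tested 2 rose and 2 fell, and the list's median of -0.46 changed sign with a minimum count of 30 (0.41). Cldn5, the tight junction protein, had 16.7, 19.8 and 17.0 CPM in the pull-down, against 70.2, 41.7, 31.3 and 29.8 CPM with IgG1 (log2 fold change -1.30 ± 0.29). Eng and Pecam1, which macrophages also carry, rose by 4.14 ± 0.18 and 3.01 ± 0.35. Among genes of fibroblasts and matrix 7 of 11 fell and 1 rose, which was Sparc, a secreted matrix protein, at 6624 ± 752 CPM in the pull-down and 584 ± 105 CPM with IgG1. Collagen IV chains were the members that fell most: Col4a1 had 1.67, 2.74 and 4.26 CPM in the pull-down, against 139, 80.5, 106 and 172 CPM with IgG1 (-5.33 ± 0.37). Mural genes fell in 3 of 3 tested and those of ependyma and choroid plexus in 4 of 5, though Pdgfrb and Ttr lost their calls under several settings, with adjusted p from 0.0558 to 0.156 and from 0.0544 to 0.114.

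**Figure D3:**
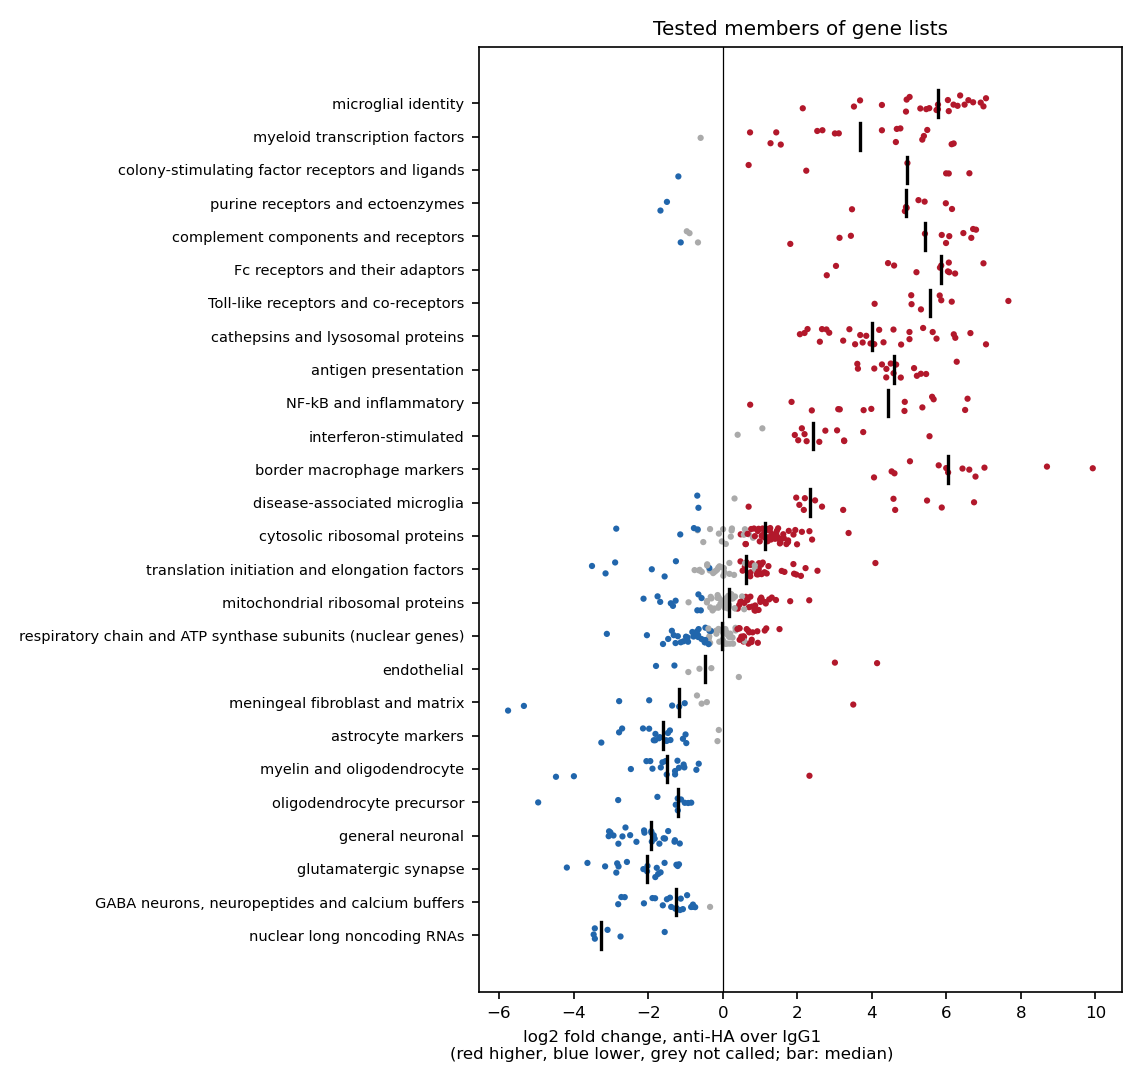
Log2 fold change of anti-HA pull-down over IgG1 (horizontal axis) for the tested members of 26 gene lists, 1 point per gene, coloured red for called higher, blue for called lower and grey for not called, with a bar at the list's median. Lists of macrophage genes lie to the right, with medians of 5.77 for microglial identity and 6.05 for border macrophages, lists of neurons, glia and nuclear long noncoding RNAs lie to the left, and housekeeping lists straddle 0.

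Nuclear RNAs that are not translated had the lowest median of the lists. Of 6 nuclear long noncoding RNAs tested 6 fell, with a median of -3.26. Malat1, a nuclear speckle RNA, had 15.0, 6.84 and 4.97 CPM in the pull-down, against 44.4, 106, 117 and 122 CPM with IgG1 (log2 fold change -3.46 ± 0.48). Meg3, an imprinted RNA of neurons, had 18.4, 20.5 and 11.3 CPM in the pull-down, against 99.2, 182, 129 and 163 CPM with IgG1 (-3.09 ± 0.25). Neither overlapped, and the same held for Neat1, the RNA that builds paraspeckles, at -3.43 ± 0.33. Sorted microglia held 11747 reads of Malat1 and 2106 of Neat1, but 5 of Meg3. Over all genes annotated as noncoding, 49 of 176 tested were higher and 71 lower (median -0.39).

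Genes of the translation machinery leaned upwards. Of 68 cytosolic ribosomal protein genes tested 49 rose and 4 fell, with a median of 1.13. Rps9 had 2077, 1802 and 2334 CPM in the pull-down, against 375, 442, 351 and 403 CPM with IgG1 (log2 fold change 2.40 ± 0.15), and Rplp1 averaged 7609 ± 100 CPM in the pull-down and 1744 ± 371 CPM with IgG1. Rpl39 was among the 4 that fell, at 3.43 ± 0.638 CPM in the pull-down and 24.4 ± 13.1 CPM with IgG1; genes of this family have many processed copies, so their counts are uncertain. Of 62 initiation and elongation factors 32 rose and 7 fell (median 0.61), and Eef1a2, the elongation factor of neurons and muscle, was one that fell, to 417, 326 and 330 CPM in the pull-down, against 1731, 1232, 1106 and 1275 CPM with IgG1. Of 74 mitochondrial ribosomal proteins 25 rose and 10 fell (median 0.17), and of 78 respiratory chain genes 22 rose and 29 fell (median -0.03); both medians change sign with the scaling. Of 37 proteasome genes 11 rose and 13 fell (median -0.09), and Psmb8, Psmb9 and Psmb10, the catalytic subunits of the immunoproteasome, rose by 5.21 ± 0.19, 4.58 ± 0.25 and 1.95 ± 0.15. Of 28 splicing factors 14 rose and 3 fell (median 0.45, or -0.09 with all 15 libraries in the fit), of 10 cell cycle genes 7 rose and 0 fell (median 1.49), and of 5 histone genes 1 rose (median 0.08, of either sign under other settings).

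Immediate early genes were split. Of 25 tested, 7 rose and 11 fell (median -0.21). Fos, a subunit of AP-1, had 26.7, 19.2 and 19.9 CPM in the pull-down, against 48.7, 33.5, 48.9 and 50.5 CPM with IgG1 (log2 fold change -1.04 ± 0.23), and the activity genes of neurons Npas4 and Egr3 changed by -2.05 ± 0.22 and -2.34 ± 0.28. Zfp36, which destabilises cytokine mRNAs, had 45.9, 33.5 and 39.0 CPM in the pull-down, against 6.78, 4.31, 2.84 and 5.18 CPM with IgG1 (3.05 ± 0.29), and Atf3 changed by 2.73 ± 0.28. The groups were apart in each of these. In the sorted microglia Fos had 21174 reads, Zfp36 29804 and Atf3 6575, which for Fos and Atf3 was 2343 and 728 CPM of total counts. Heat shock genes gave 2 higher and 6 lower of 14 (median -0.50); Hsp90b1, the chaperone of the endoplasmic reticulum, rose by 2.68 ± 0.19, and Hsp90aa1, its cytosolic relative, averaged 20.1 ± 4.22 CPM in the pull-down and 104 ± 42.9 CPM with IgG1.

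The genes with the widest differences upwards had few or no control reads. Next to Folr2, with no read in an IgG1 library, were Gsg1 (at least 98.2-fold), Ccl24 (73.1-fold), Bcl2a1a (59.8-fold), Rhbdf2 (30.7-fold), Ccl8 and Cass4 (both 29.1-fold), Duoxa1 (25.6-fold) and Ceacam1 (24.0-fold), all of them lower bounds. Ccl24 and Ccl8 are chemokines, and Bcl2a1a is a survival factor of the Bcl2 family with close copies between which reads may be divided. Trim14, an adaptor of antiviral signalling, had 275 reads in the pull-down, against 2 with IgG1, a ratio of 211 after depth scaling (exact 95% interval 57.8 to 1750). Ms4a6c and the ficolin gene Fcna likewise had 2 IgG1 reads each. Where control reads were more numerous, Susd3 had 578, 530 and 672 CPM in the pull-down, against 4.31, 4.31, 2.84 and 2.59 CPM with IgG1 (log2 fold change 7.30 ± 0.21), and H2-Oa, a chain of the class II peptide editor, changed by 7.11 ± 0.28.

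Among the widest differences downwards were genes of neurons and of collagen IV. Slc35f1, Prrg3, Pmch and Slc6a15 had no pull-down read and were at least 24.8-fold, 17.8-fold, 17.2-fold and 12.6-fold lower; Pmch encodes the hypothalamic peptide MCH, and Slc6a15 is a neuronal transporter of amino acids. Cit, a kinase of cell division and of neurons, had 7.52, 7.52 and 5.67 CPM in the pull-down, against 256, 308, 431 and 895 CPM with IgG1 (log2 fold change -6.06 ± 0.71, edgeR adjusted p = 0.000327). Col4a2 had 5.01, 4.10 and 4.26 CPM in the pull-down, against 261, 103, 247 and 384 CPM with IgG1 (-5.76 ± 0.66). The control libraries of both genes spread over a more than 3-fold range yet stayed above the pull-down. Palmd changed by -5.23 ± 0.38. Pls3 and Gdap1 had log2 fold changes of -6.05 and -5.75. Fut9 had 1 pull-down read, against 193 IgG1 reads, a ratio of 0.00795 (exact 95% interval 0.000200 to 0.0448), and Hecw1 had 3, against 201, a ratio of 0.0229 (0.00468 to 0.0679). Fut9, Pls3, Gdap1 and Hecw1 lost their calls with limma-voom, at adjusted p of 0.0712, 0.0911, 0.105 and 0.0772. Col19a1 and Ube2v2 had 1 pull-down read each, against 237 and 74 IgG1 reads. As a share of total counts, mean IgG1 levels of Cit, Palmd and Col19a1 were 530, 66.9 and 46.6 CPM here. They were lower in the driver experiment with tamoxifen, at 53.9, 5.35 and 7.68 CPM, and in the PBS mice, at 74.8, 2.61 and 4.72 CPM. Prrg3 went the other way, at 15.9 CPM here, 23.6 CPM in the driver experiment and 20.1 CPM in the PBS mice.

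The sorted microglia of the same experiment were used as a readout that the comparison did not use. Among the 3804 genes called higher, 10 (0.263%) had at most 3 reads in all 8 sorted libraries, and among the 4109 called lower 1329 (32.3%) did. Genes called higher had a median of 72.2 CPM in sorted cells, and genes called lower 4.21 CPM. The sets also differed in level, with medians of 75.3 and 16.6 CPM in the pull-down and 21.9 and 46.9 CPM with IgG1. Sorted cells and pull-down are said to come from the same animals, so this readout is not from independent mice. Of the genes called higher with at most 3 sorted reads, 8 averaged 10 CPM or more in the pull-down: Mmp17, Mmp9, F13a1 (the coagulation factor XIII chain of border macrophages, at 112 ± 8.77 CPM in the pull-down and 1.75 ± 1.13 CPM with IgG1), Fcna, the phospholipase Pla2g2d, the phosphatase Acp5, Cd4 and Atp10b. In the mice without tamoxifen F13a1, which was not tested there, had 4 and 2 pull-down reads, against 4 and 1 IgG1 reads. Atp10b had 25 and 17 pull-down reads, against 0 and 1. These reads are not scaled for depth, and the total counts were 219521 and 186099 in the pull-down, against 1008705 and 629966 with IgG1.

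The same comparison had been made in other mice of this genotype. With tamoxifen, 7472 of 9973 genes (74.9%) were called in the experiment on Cre drivers and 7019 of 10154 (69.1%) in the saline-injected (PBS) mice of the LPS experiment, 3 libraries of each antibody in each. Of the genes called higher here and tested in the driver experiment, 3013 were called higher in it, 84.8% of those called here and 84.5% of those called there, where 35.9% of genes tested were higher and 39.0% lower. For the PBS mice the shared genes called higher were 3041, 83.8% of those here and 88.1% of those there, where 34.7% were higher and 34.4% lower. Genes called lower were shared at 81.3% and 81.1% with the driver experiment and at 81.0% and 88.1% with the PBS mice. Without tamoxifen (2 libraries of each antibody), 837 of 7219 genes (11.6%) were called, and 438 called higher were shared, 18.8% of those here and 85.9% of those there. Pull-down libraries without tamoxifen held total counts of 219521 and 186099, against 1425819 to 1714523 here. The part of this lower depth in the smaller share of calls was not tested. Without tamoxifen, 22 of 22 microglial identity genes tested were higher, with a median log2 fold change of 3.49, against 7.09% of all genes tested called higher and 4.50% lower. Those 837 calls became 293 without pull-down replicate 1 of these mice and 409 without pull-down replicate 2.

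Whether enrichment differed between experiments was tested in 1 joint fit over 11174 genes. Ddx3y, a gene of the Y chromosome, had no read in the IgG1 or sorted libraries here. As a share of total counts it averaged 137 CPM with IgG1 in the driver experiment and 65.6 CPM with IgG1 in the PBS mice. The sex of the mice is not stated here. An effect of it was not tested and could not be told apart from that of the experiment. The difference from the driver experiment was called for 1165 genes (10.4%), 533 with a larger log2 fold change here (4.77%) and 632 with a smaller one (5.66%). The difference from the PBS mice was called for 722 genes (6.46%), 296 larger (2.65%) and 426 smaller here (3.81%). Both differences were called for 168 genes, of which 56 were larger and 97 smaller here in both terms, which share the libraries of this experiment. Microglial identity genes were larger here than in the PBS mice for 16 of 25 tested and smaller for 0, with a median difference of 1.10, and against the driver experiment 3 were larger and 2 smaller, with a median difference of 0.01. Of 8 nuclear long noncoding RNAs 4 were smaller here than in the PBS mice, with a median difference of -1.66. The 1165 calls became 756 and 637 without pull-down replicate 1 or 2 here, and 669 and 684 without pull-down replicate 3 or IgG1 replicate 3 of the driver experiment. The 722 calls became 432 without pull-down replicate 2 here and 475 without pull-down replicate 2 of the PBS mice.

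**Figure D4:**
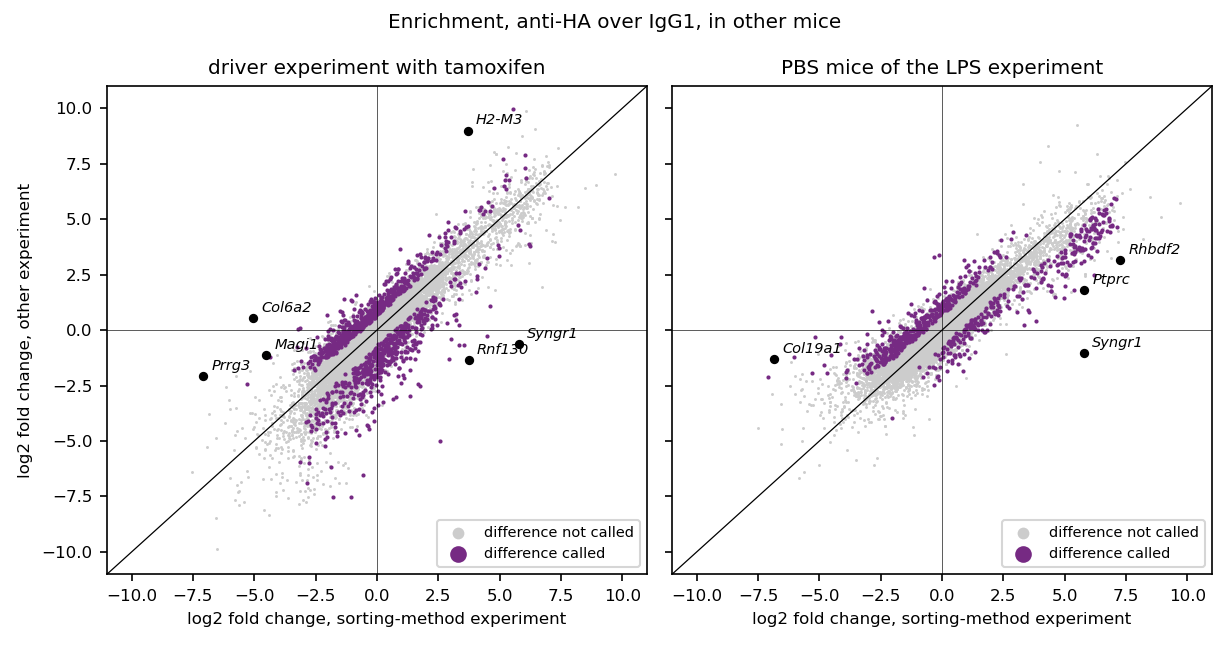
Log2 fold change of anti-HA pull-down over IgG1 in the sorting-method experiment (horizontal axis) against that in the driver experiment with tamoxifen (left) and in the PBS mice of the LPS experiment (right), 1 point per gene of the joint fit, with genes whose difference was called in purple, some named ones in black and a line at equal values; fitted values of genes with no read in a group depend on the prior count. Most points follow the line, and Syngr1 lies far off it in both panels, at differences of 6.43 and 6.84.

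Syngr1, which encodes the synaptic vesicle protein synaptogyrin 1, stood apart in both terms. It had 756, 736 and 785 CPM in the pull-down, against 12.3, 13.9, 15.9 and 12.96 CPM with IgG1, a log2 fold change of 5.76 ± 0.17. In the joint fit its means were 265 ± 8.33 CPM in the pull-down and 416 ± 39.3 CPM with IgG1 in the driver experiment, and 220 ± 21.4 CPM in the pull-down and 459 ± 36.8 CPM with IgG1 in the PBS mice. The order of the antibodies was thus opposite, by 6.43 ± 0.23 and 6.84 ± 0.23 on the log2 scale (edgeR adjusted p = 6.08e-23 and 6.92e-24). As a share of total counts, sorted microglia held 237 to 334 CPM of Syngr1 in this experiment and 61.4 to 63.4 CPM in the PBS mice, so the gene's row also differed where the same cell type was sorted. The tables were made separately, and which transcript each row counts is not given.

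For several other genes the control libraries of the experiments differed as well. Rnf130, a ubiquitin ligase, had means of 359 ± 9.69 CPM in the pull-down and 27.5 ± 6.42 CPM with IgG1 here, and of 48.3 ± 8.40 CPM in the pull-down and 124 ± 8.79 CPM with IgG1 in the driver experiment (difference 5.09 ± 0.26), where both antibodies differed. Magi1, a scaffold protein of cell junctions, had 13.3 ± 3.33 CPM in the pull-down and 312 ± 105 CPM with IgG1 here, and 15.5 ± 1.81 CPM in the pull-down and 34.9 ± 8.14 CPM with IgG1 in the driver experiment (-3.38 ± 0.44). Cit had 466 ± 281 CPM with IgG1 here and 65.9 ± 7.47 CPM with IgG1 in the PBS mice, with pull-down means of 6.96 and 28.3 CPM (-4.81 ± 0.78). For Palmd the difference from the PBS mice was -4.87 ± 0.98, a call that was lost without pull-down replicate 2 of those mice (edgeR adjusted p = 0.161). On the other side, Ptprc, the leukocyte antigen CD45, had 58.0 ± 3.89 CPM in the pull-down and 1.20 ± 0.948 CPM with IgG1 here, and 37.7 ± 3.68 CPM in the pull-down and 10.3 ± 4.08 CPM with IgG1 in the PBS mice (3.97 ± 0.52).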

How the data were processed

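The authors deposited, in a separate table for each experiment, unnormalised exon counts for each gene symbol, which are whole numbers with totals that differ between libraries. Per the submitters' processing notes, bcl2fastq, HISAT 0.1.5, HOMER and the build mm9 were used; the annotation, the strand setting and the treatment of duplicates or molecular identifiers are not given in the sources used here, so intervals cover counting error only and antisense partners cannot be told apart. Libraries were assigned by their labels. Genes were kept with filterByExpr (minimum count 10, edgeR 4.0.16, R 4.3.3), scaled by TMM and tested with the quasi-likelihood F test and Benjamini-Hochberg adjustment over all genes tested, at 0.05, without the replicate number in the model. A gene could pass the filter through either group alone, so in lists scarce with IgG1 the count of rises was partly set by it. The difference between experiments was an interaction in 1 fit over 19 libraries and the symbols shared by the tables. A gene with no read in a group was given a bound from 3 reads over that group, and one with 1 to 3 reads a ratio with an exact 95% interval. Fitted differences between experiments that rest on such a group depend on the prior count and are no bound. Alternatives were other scalings, filters and libraries, DESeq2 1.42.0, limma-voom (limma 3.58.1), a replicate block and leaving out each library. The fits were also run on simulated counts in which few genes changed, equally often up and down. That run cannot test scaling or error rates where most genes differ, as they did here. Genes named are the 15 called genes with the largest log2 fold changes in each direction at a mean of at least 10 CPM and no overlap, the 4 with the smallest p in each list, list members called against their list's median, and 5 in each direction of each difference; others, such as Rn45s, Adora2a and the genes scarce in sorted cells, were chosen after their values were seen. Some genes that this rule picks are not reported here. The lists share members (Laptm5 is in 2). The comparison and the lists were chosen with earlier results of these data known. Promoter windows are from RefSeq on GRCm38.p6, another build than that of the counts.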

Additional observations from a re-analysis of the deposited data

Results flagged for a closer look

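In the IgG1 group, 1 library lay far from the other 3 for 16 of the 217 genes checked, where chance gives about 1 in 20. Rpl22 had 71.3 CPM in IgG1 replicate 4, against 83.8 to 84.8 CPM in the others. Replicate 4, the shallowest library, was also apart for Csf3r (6.48 CPM, others 1.85 to 2.40), Egr3 (50.5, others 34.7 to 37.4) and P2ry6 (1.30, others 4.55 to 4.93). IgG1 replicate 3 was apart for Camk2b (1180 CPM, others 1030 to 1040), Uqcrc1 (659, others 564 to 572), Cd33 (3.98, others up to 0.616) and Csf2rb2 (1.14, others 0). IgG1 replicate 2 was apart for Fos (33.5 CPM, others 48.7 to 50.5), Trim14 (0.958, others 0) and the haemoglobin genes Hba-a1 and Hba-a2 (70.9 each, others 3.98 to 10.4). IgG1 replicate 1 was apart for Cx3cl1 (575 CPM, others 362 to 387), Mrps21 (17.9, others 24 to 25), Ndufa10 (200, others 245 to 250) and Ms4a6c (1.23, others 0).

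The difference in enrichment from the driver experiment was called by the interaction test for 1165 genes, and that from the PBS mice for 722. Where each of the 4 groups set against each other held more than 3 reads, the genes named had differences from the driver experiment of 6.43 for Syngr1, 5.09 for Rnf130 and -3.38 for Magi1, and from the PBS mice of 6.84 for Syngr1, 3.97 for Ptprc, -4.81 for Cit, -4.87 for Palmd and -3.81 for Spire2. The calls of Palmd and Spire2 were lost without pull-down replicate 2 of the PBS mice (edgeR adjusted p = 0.161 and 0.103). For Rnf130 the difference from the PBS mice was 0.12 and was not called (edgeR adjusted p = 0.859).

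For the other genes named a group held 0 to 3 reads, so the fitted difference depends on the prior count and is neither a measured size nor a bound. Ddx3y, a helicase encoded on the Y chromosome, had 2 pull-down reads and 0 IgG1 reads here and no read in the sorted libraries of the experiment. It had 9 pull-down and 441 IgG1 reads in the driver experiment, and 100 and 194 in the PBS mice. There was thus no enrichment here to compare, and its fitted value of 7.59 lost its call under 13 settings. Med21 (6.48) and Shisa9 (5.74) had no pull-down read in the driver experiment, with 69 IgG1 reads each, and each lost its call under 2 settings. H2-M3 (-5.30) and Arl11 (-4.42) had no IgG1 read in the driver experiment. H2-M3 had 54.9 CPM in the pull-down and 4.42 CPM with IgG1 here, and 51.0 CPM in the pull-down there, and Arl11 lost its call under 10 settings. Col6a2 (-5.61) had 2 pull-down and 120 IgG1 reads here. Prrg3 had no pull-down read here, with fitted differences of -5.01 from the driver experiment and -4.95 from the PBS mice, calls lost under 2 and 3 settings. Col19a1 (-5.52 from the PBS mice) had 1 pull-down read here, and its call was lost without pull-down replicate 2 of the PBS mice. Rhbdf2 (4.08 from the PBS mice), Abcb1b (3.67) and C5ar1 (3.60) had 0, 1 and 2 IgG1 reads here, and the differences of Rhbdf2 and C5ar1 from the PBS mice each lost their calls under 10 settings.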

How the results depend on the processing

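Against a minimum of 2-fold (glmTreat), 4111 genes were called, 2056 higher and 2055 lower. The share of calls that were higher was 48.1%, and 35.1% with total counts, 40.2% with upper-quartile factors, 50.4% with RLE factors and 35.8% with all 15 libraries. Leaving out each library gave 7267 to 7965 calls, 3538 to 3927 higher and 3729 to 4038 lower. List medians changed sign for endothelium (0.411 at minimum count 30, and -0.643 to 0.0915 over the fits that left out a library), erythroid genes (-0.119 with total counts, -0.161 with all 15 libraries, and -1.48 to 1.08 over those fits), mitochondrial ribosomal proteins (-0.248 with total counts, -0.0794 with upper quartile, -0.268 with all 15), the respiratory chain (0.0429 with RLE, 0.0431 with DESeq2, 0.0146 with the replicate block, and -0.160 to 0.0868 without each library), splicing factors (-0.0943 with all 15) and histones (-0.330 with total counts, -0.165 with upper quartile, -0.292 unfiltered, -0.328 with all 15, and -0.216 to 0.318 without each library); the cause was not tested. Without tamoxifen DESeq2 called 353 genes (283 higher, 70 lower), a minimum count of 30 left 311 higher, the replicate block gave 530 lower, and leaving out a library gave 293 to 1088 (214 to 539 higher, 79 to 549 lower). The difference from the driver experiment had 831 genes higher with the block and 637 to 1464 called without each library (292 to 708 higher, 345 to 756 lower). That from the PBS mice had 432 to 910 (196 to 378 higher, 236 to 532 lower), and its share of higher calls was 41.0%, or 52.4% with RLE. No label says that a replicate number marks an animal, and the numbers were not taken as pairs. Deviations of same-numbered libraries correlated at 0.019, 0.076 and 0.119, and those of the other pairs at -0.109 to 0.0885. Pull-down replicates 1 and 2 correlated best with IgG1 replicate 4, and pull-down replicate 3 with IgG1 replicate 3. The erythroid sum was highest in replicate 2 of both antibodies, at 387 and 405 CPM. Whether same-numbered libraries share an animal was not tested. The block gave 7910 calls. Of the single genes named, 27 values lost and 7 gained a call over all settings, and of the named differences between experiments 55 values lost it. Beside the sign changes, 25 list medians moved by 0.5 or more, 8 of them unfiltered, 8 with all 15 libraries and 5 at a minimum count of 30.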

Other observations

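In mice without tamoxifen, 22 of 26 lysosomal genes tested were higher in the pull-down (median log2 fold change 2.13), 0 of 23 general neuronal genes were higher and 2 lower (median -0.20), and 0 of 55 cytosolic ribosomal protein genes were higher and 9 lower (median -0.38), where 7.09% and 4.50% of all genes tested were called in those directions. Chemokine genes had a larger log2 fold change in the sorting-method experiment than in the PBS mice for 6 of 13 tested and a smaller one for 1, with a median difference of 1.81. Cytosolic ribosomal proteins were larger for 1 and smaller for 10 of 75 in that term, and larger for 9 and smaller for 5 against the driver experiment. Respiratory chain genes were larger for 6 and smaller for 15 of 78 against the PBS mice, and larger for 12 and smaller for 1 against the driver experiment. Over all genes tested for these differences, 2.65% were larger and 3.81% smaller against the PBS mice. Against the driver experiment the shares were 4.77% and 5.66%.

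Among genes scarce in sorted microglia, F13a1 had log2 fold changes of pull-down over IgG1 of 6.05 here, 5.45 in the driver experiment and 5.36 in the PBS mice. Pla2g2d, a secreted phospholipase, had 5.73, 5.32 and 4.90 in the same order. Mmp9 had 6.46 here and 5.42 in the PBS mice, and was also called higher in the driver experiment (edgeR adjusted p = 2.06e-14). Mmp17 had 1.51 here, 0.81 in the driver experiment and 0.67 in the PBS mice.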
